A study of Mus musculus with 24 samples.

Results

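The 32 genes described here carry out DNA repair, and they were taken by symbol from a fixed list and read through their RefSeq identifiers on the arrays. All 32 were measured, out of 35259 features tested in the series. Of these 32 genes, 5 sense broken DNA, 4 act in recombination or as helicases, 5 join broken ends, 6 are glycosylases, 7 act in the later steps of base excision, 4 act in nucleotide excision, and 1 (Msh6) recognises mismatches. A gene was represented by the probe with the highest mean signal, and 31 of the 32 probes were well above background on all 24 arrays. The exception was Neil3, whose detection is given beside its values.

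Hippocampal RNA of male mice was hybridised to 24 1-colour Agilent arrays, 1 array per sample. The labels number the samples as replicates and do not state that each came from its own animal, so p-values measure the spread between these samples. The mice were of the strain labelled B6.Cg-Tg(APPswe,PSEN1dE9)85Dbo/J, either with both transgenes or without either. These transgenes encode a mutant amyloid precursor protein and a mutant presenilin, are known to be driven by the mouse prion protein promoter in this strain, and lead to amyloid plaques. Gavage ran from 2 to 7 months of age. WT_CTR (n = 4) was non-transgenic and received water, APP-PS1_CTR (n = 3) was transgenic and received water, and APP-PS1_UA (n = 4) was transgenic and received urolithin A, a gut bacterial metabolite of ellagitannins known for inducing mitophagy. WT_WASHOUT (n = 5, water), APP-PS1_WASHOUT (n = 3, transgenic, water) and APP-PS1_UA-WASHOUT (n = 5, transgenic, urolithin A) were kept for 1 more month without gavage. No non-transgenic animal received urolithin A. The sources give the daily dose as 200 mg/kg in one place and 20 mg/kg in another, and the labelled ages, 8 months and 9 months after washout, differ from the design text by a month.

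The arrays lay on 3 slides, and this bears on every result. WT_CTR, APP-PS1_CTR and replicate 1 of APP-PS1_UA shared slide 1, and slide 2 carried WT_WASHOUT with replicates 2 to 4 of APP-PS1_UA. Both transgenic washout groups were on slide 3, which carried no other array. Genotype and slide therefore cannot be told apart after washout, nor can stage and slide. On slide 3, row 2 held replicates 2 to 5 of APP-PS1_UA-WASHOUT, with 63.7 to 69.9% of spots well above background and 290 to 436 outlier flags, against 73.8 to 76.9% and 124 to 256 in row 1. Slides 1 and 2 ranged from 68.5 to 74.4% and from 61 to 138 flags. The 75th percentile of the signal lay between 1285 and 2292 units, 0 spots were saturated, and none of the 32 genes lost a value to a flag. Marker lists were read beside the tissue label. The mean log2 level of 6 neuronal markers lay between 4.54 and 4.99 on every array, which does not tell the brain region. That of 7 hippocampal markers lay between 1.59 and 2.02, and that of 5 striatum and thalamus markers between -0.67 and 0.79. No other brain region was measured, so the hippocampal label was not tested. The mean level of 8 choroid plexus markers varied from -2.60 to 3.93 between arrays of all groups.

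DNA is repaired by several pathways that divide the work by type of damage. Double-strand breaks are recognised by the MRE11, RAD50 and NBN complex, which activates the kinase ATM, and are mended either by homologous recombination, which uses BRCA1 and BRCA2 and needs a sister copy, or by end joining, which uses the DNA-dependent protein kinase, XRCC4 and DNA ligase IV. In neurons, which do not divide, end joining is the main route for breaks, and base excision repair deals with oxidised bases, which are frequent in a tissue with a high oxygen use. In base excision a glycosylase removes the damaged base, APEX1 cuts the backbone, DNA polymerase beta fills the gap, and XRCC1 with a ligase seals it. Nucleotide excision removes bulky lesions, and mismatch repair removes replication errors.

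Promoter sequences are shown for 5 of the genes whose levels parted most after washout, since these are the genes the results turn on. Each run is the 250 bases before the RefSeq start in build GRCm38.p6, in the gene's own 5′ to 3′ direction. Capitals mark the CCAAT box (CCAAT), the GC box (GGGCGG) and an E2F core (TTGGCGC or TTCCCGC), each searched on both strands. Blm and Neil3 and Neil1 were higher, and Atm and Ung lower, as described below.
Blm, chr7:80534999-80535248, minus strand: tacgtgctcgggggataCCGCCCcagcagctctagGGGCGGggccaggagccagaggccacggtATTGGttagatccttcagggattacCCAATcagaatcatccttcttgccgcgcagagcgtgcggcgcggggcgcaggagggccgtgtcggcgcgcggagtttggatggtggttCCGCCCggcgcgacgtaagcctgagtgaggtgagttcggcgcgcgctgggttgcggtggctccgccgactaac
Neil3, chr8:53639066-53639315, minus strand: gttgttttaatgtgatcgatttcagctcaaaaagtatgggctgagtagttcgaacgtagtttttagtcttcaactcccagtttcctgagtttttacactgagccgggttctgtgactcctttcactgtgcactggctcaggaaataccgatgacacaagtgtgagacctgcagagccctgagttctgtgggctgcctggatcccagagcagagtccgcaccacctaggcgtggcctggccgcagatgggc
Neil1, chr9:57148306-57148555, minus strand: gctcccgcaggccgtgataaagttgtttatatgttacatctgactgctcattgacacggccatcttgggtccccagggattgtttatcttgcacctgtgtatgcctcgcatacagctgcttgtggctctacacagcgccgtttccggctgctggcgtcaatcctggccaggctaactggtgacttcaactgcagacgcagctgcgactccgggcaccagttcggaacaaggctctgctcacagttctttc
Atm, chr9:53536672-53536921, minus strand: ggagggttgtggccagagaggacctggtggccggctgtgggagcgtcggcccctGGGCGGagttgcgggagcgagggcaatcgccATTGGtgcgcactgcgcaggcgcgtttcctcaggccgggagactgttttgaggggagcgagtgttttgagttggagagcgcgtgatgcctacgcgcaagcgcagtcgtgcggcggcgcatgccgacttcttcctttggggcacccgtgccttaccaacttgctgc
Ung, chr5:114130185-114130434, plus strand: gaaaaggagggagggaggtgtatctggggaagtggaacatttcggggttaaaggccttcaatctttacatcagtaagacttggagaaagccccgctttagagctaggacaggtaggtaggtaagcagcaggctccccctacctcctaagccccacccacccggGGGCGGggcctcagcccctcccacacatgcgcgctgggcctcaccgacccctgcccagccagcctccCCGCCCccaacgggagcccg
The Blm window held 2 CCAAT boxes and 3 GC boxes, the Atm window 1 of each, the Ung window 2 GC boxes, and the Neil1 and Neil3 windows held none of these letters. RefSeq promoters matched 25 of the 32 genes, with 29 windows. A CCAAT box was present in 13 of these 29 windows (44.8%) and in 33.8% of all 32851 promoters of the same length, a GC box in 17 (58.6%) and 32.7%, and an E2F core in 5 (17.2%) and 5.62%. In 1 place in these 29 windows letters of different motifs overlapped. A match describes the letters only.

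Levels below are log2 signals relative to the array's 75th percentile, so that 0 is that percentile, and are given as mean ± SD. Differences between groups are on the log2 scale, each with its standard error (SE) from limma. A gene passed the test when its Benjamini-Hochberg adjusted p over all 35259 features was below 0.05.

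APP/PS1 mice were first compared with wild type at the end of treatment, both on water and both on slide 1. None of the 32 repair genes passed the test, where 0.17% of all features did. The smallest adjusted p among them was 0.584, and 3 of the 32 had an unadjusted p below 0.05 (9.38%, against 6.47% of all features). Their differences ran from -0.34 to 0.31 with a median of 0.03, against -0.00333 over all features. The 95% interval lay inside a log2 difference of -0.5 to 0.5 for 23 of the 32 genes. Groups did not overlap for 3 genes, Atr and Xrcc4 above and Lig1 below (9.38%, against 8.73% of all features).

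The 3 genes with the smallest p in that comparison came from different pathways. Xrcc4, the scaffold that holds DNA ligase IV at a broken end, read -0.46, -0.22, -0.26 and -0.21 in WT_CTR and 0.03, 0.01 and -0.07 in APP-PS1_CTR. All 3 transgenic arrays lay above all 4 wild-type arrays, and the difference was 0.28 (SE 0.09, limma adjusted p = 0.584). Ogg1, the glycosylase for 8-oxoguanine, read -0.68, -0.60, -0.50 and -1.09 in WT_CTR and -0.27, -0.57 and -0.37 in APP-PS1_CTR. The groups overlapped, and the difference of 0.31 (SE 0.13) did not pass the test. Atr, the kinase that responds to stalled replication forks, read 0.38, 0.65, 0.57 and 0.40 in WT_CTR and 0.67, 0.79 and 0.69 in APP-PS1_CTR. Its groups did not overlap, by a narrow margin, and the difference of 0.22 (SE 0.10) did not pass. The WT_CTR arrays filled row 1 of slide 1 and the APP-PS1_CTR arrays row 2. With array row as a fixed block the differences were 0.13 for Xrcc4, 0.14 for Ogg1 and 0.06 for Atr. Row and genotype cannot be told apart between these groups, so the row effect in that fit came from other groups on other slides as well. Markers of plaque-associated microglia separated the same animals: 6 of 6 measured markers were higher in APP-PS1_CTR, and their mean level lay between 0.18 and 0.30, against -2.87 to -2.24 in WT_CTR.

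Urolithin A was compared with water in APP/PS1 mice at the end of treatment. None of the 32 genes passed the test, and 0% of all features did, although 2623 features had an unadjusted p below 0.05 (7.44%). Among the repair genes 6 did so (18.8%): Parp2, Parp1, Neil1, Ercc1 and Mutyh with lower values and Neil2 with a higher one, and the smallest adjusted p was 0.637. The median difference over the 32 genes was 0.00546, against -0.00774 over all features, and 24 of the 32 intervals lay inside -0.5 to 0.5. Groups did not overlap for 7 genes (21.9%, against 11% of all features): Msh6, Neil2 and Lig3 lay above and Neil1, Parp1, Parp2 and Ercc1 below.

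The poly(ADP-ribose) polymerases Parp1 and Parp2 bind single-strand breaks and recruit XRCC1. Parp1 read 0.85, 0.79 and 0.65 in APP-PS1_CTR and 0.45, 0.41, 0.15 and 0.45 in APP-PS1_UA, a difference of -0.40 (SE 0.16). Parp2 read -0.78, -0.82 and -0.97 in APP-PS1_CTR and -0.99, -1.11, -1.19 and -1.12 in APP-PS1_UA, a difference of -0.25 (SE 0.09). For both of these probes every treated array lay below every water array. A second Parp2 probe read -1.43, -1.42 and -1.46 in APP-PS1_CTR and -1.67, -1.70, -1.69 and -1.35 in APP-PS1_UA, so that its groups overlapped. In WT_CTR, the probe used read 0.45, 0.41, 0.36 and 0.79 for Parp1 and -1.02, -1.05, -0.95 and -1.04 for Parp2. In both genes the WT_CTR range overlapped that of the treated arrays and that of the APP-PS1_CTR arrays. Neil1, a glycosylase for oxidised pyrimidines, read -3.33, -3.27 and -3.22 in APP-PS1_CTR and -3.71, -3.49, -3.89 and -3.56 in APP-PS1_UA, a difference of -0.39 (SE 0.16). The Neil1 groups did not overlap. In each of these genes the treated values of replicates 2 to 4 came from slide 2 and the water values from slide 1. With slide as a fixed block, which leaves replicate 1 of APP-PS1_UA to carry the comparison on slide 1, the differences were -0.31 (SE 0.24) for Parp1, -0.13 (SE 0.13) for Parp2 and -0.44 (SE 0.25) for Neil1, and none passed.

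The stage comparison in wild type, WT_WASHOUT against WT_CTR, set slide 2 against slide 1 and an older age against a younger one. None of the 32 genes passed, and 0.017% of all features did. For 0 of the 32 genes was the unadjusted p below 0.05, the smallest adjusted p was 0.614, and 0 genes had groups that did not overlap (1.82% of all features did). The differences ran from -0.20 to 0.22, their median was 0.03 against -0.01 over all features, and 29 of the 32 intervals lay inside -0.5 to 0.5. The smallest p belonged to Xrcc6, the smaller subunit of the Ku dimer that caps broken ends, followed by Xrcc4 and Brca2. Xrcc6 read 1.47, 1.75, 1.77 and 1.67 in WT_CTR and 1.71, 1.69, 1.89, 1.83 and 1.98 in WT_WASHOUT, a difference of 0.16 (SE 0.08). Brca2, which acts in homologous recombination, read -1.57, -1.15, -0.99 and -1.46 in WT_CTR and -0.98, -1.17, -0.97, -1.28 and -0.96 in WT_WASHOUT, a difference of 0.22 (SE 0.13). Xrcc4 read -0.27, -0.28, -0, -0.17 and 0.02 in WT_WASHOUT, 0.14 (SE 0.08) above the WT_CTR values given earlier. In all 3 genes the groups overlapped.

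**Figure D1:**
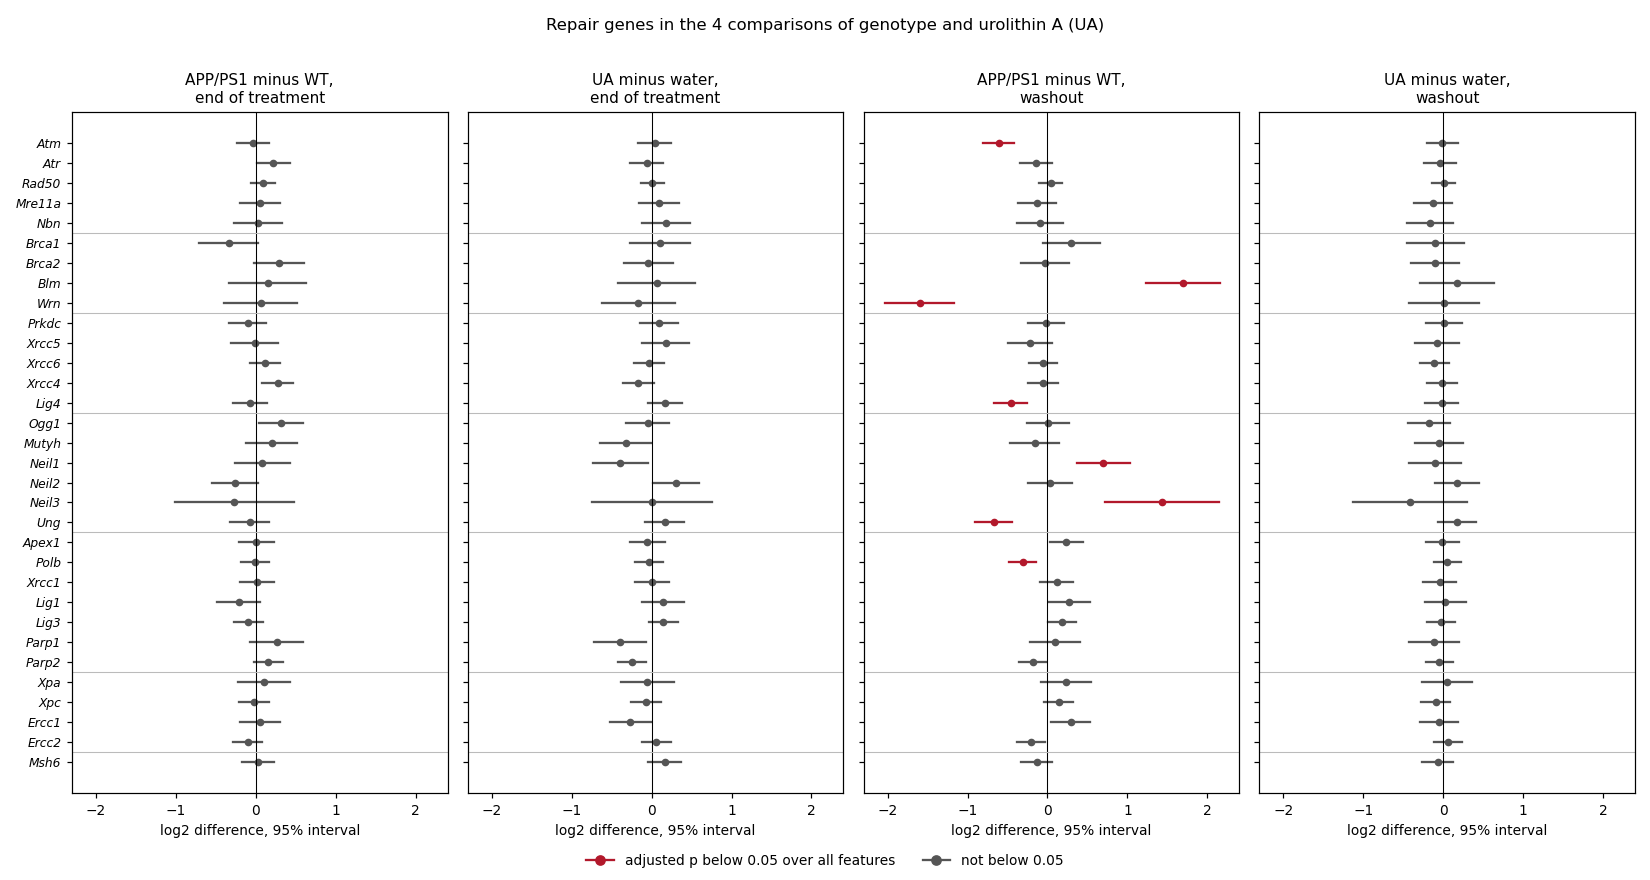
Log2 differences of the 32 repair genes (rows, grouped by pathway, separated by grey lines) in 4 comparisons, as points with 95% intervals on a common log2 axis. Red marks an adjusted p below 0.05 over all features: 8 genes in the washout genotype comparison and 0 in the other 3.

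In the washout genotype comparison, several repair genes differed between the arrays of APP-PS1_WASHOUT and those of WT_WASHOUT. Of the 32 genes 8 passed the test (25%), where 27.5% of all features did, so that the share of repair genes was close to the background. Of these 8, 3 were higher (Blm, Neil3 and Neil1; 19.8% of all features were higher) and 5 were lower (Wrn, Ung, Atm, Lig4 and Polb; 7.71%). The median difference over the 32 genes was -0.02, against 0.07 over all features. Groups did not overlap for 10 genes (31.2%, against 31% of all features), 4 above and 6 below: the 8 named and, without passing the test, Apex1 above and Ercc2 below. The comparison set slide 3 against slide 2. Scaling each array by its median in place of its 75th percentile moved the median over all features from 0.07 to -0.15 and the split of all calls from 6984 higher and 2718 lower to 4976 and 7874. All 8 genes kept their direction and passed under that scaling, where 16 of the 32 passed, 3 higher and 13 lower.

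**Figure D2:**
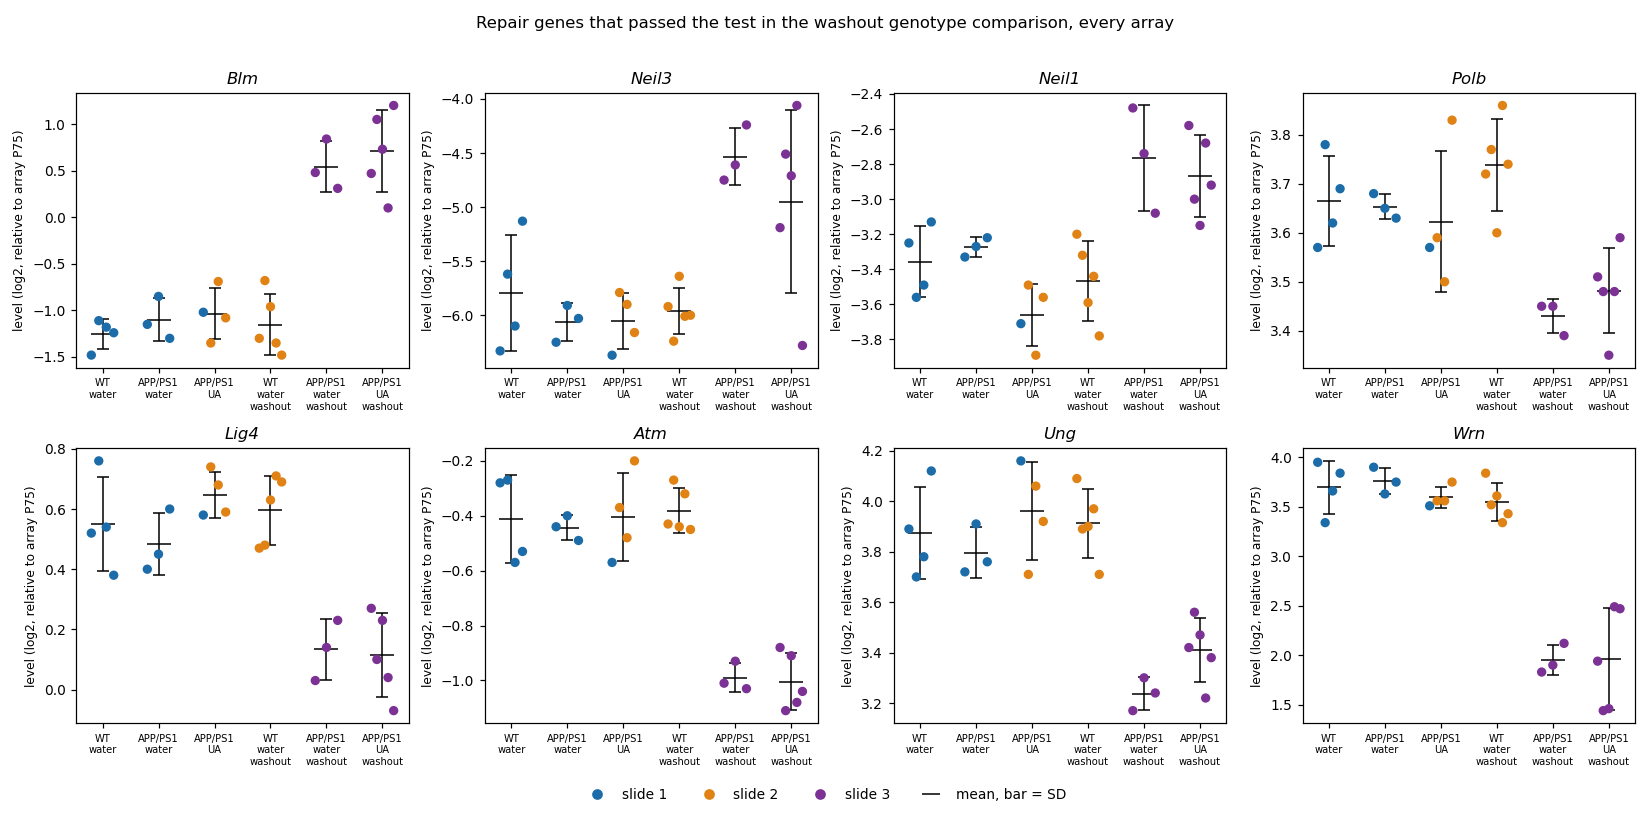
Level of the 8 repair genes that passed the test in the washout genotype comparison on each of the 24 arrays (log2 relative to the array's 75th percentile, y axis; each panel has its own range), by group (x axis). Points are arrays coloured by slide, and bars are mean and SD: Blm, Wrn, Ung, Atm and Lig4 on slide 3 (purple) do not overlap any array of slides 1 and 2.

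Among the probes used, the largest differences were in a pair of RecQ helicases, which unwind recombination intermediates and are named for Bloom and Werner syndromes. Blm read -1.30, -0.68, -0.96, -1.35 and -1.48 in WT_WASHOUT and 0.48, 0.84 and 0.31 in APP-PS1_WASHOUT. The level rose from -1.15 ± 0.33 (SD, n = 5) to 0.55 ± 0.27 (SD, n = 3), which is 3.25-fold (1.70, SE 0.22, limma adjusted p = 8.58e-06). Wrn moved the other way. It read 3.84, 3.52, 3.61, 3.34 and 3.43 in WT_WASHOUT and 1.83, 1.90 and 2.12 in APP-PS1_WASHOUT. The difference was -1.60 (SE 0.21, limma adjusted p = 8.37e-06), so that its signal was 3.03 times higher in wild type. For both of these probes the groups stood far apart compared with the spread within them, but other probes of the same genes did not follow. The other Blm probe was lower (-0.34, limma adjusted p = 0.0127), and the 4 other Wrn probes did not pass. The probes used for Brca1 and Brca2 did not pass, with differences of 0.30 (SE 0.17) and -0.03 (SE 0.14), whereas a second Brca1 probe differed by 2.52, as described with the other probes.

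The glycosylases split by direction. Neil3, which acts on single-stranded DNA and is known from dividing cells, read -5.92, -6.24, -5.64, -6.01 and -6.00 in WT_WASHOUT and -4.75, -4.61 and -4.24 in APP-PS1_WASHOUT, 1.43 higher (SE 0.34, limma adjusted p = 0.00358). Its probe was near the detection limit: it was well above background on 4 of 5 WT_WASHOUT arrays, on 3 of 3 APP-PS1_WASHOUT arrays and on 18 of 24 arrays in all. With normexp background correction the Neil3 difference was 0.37 (adjusted p = 0.173), and with quantile normalization 0.80 (adjusted p = 0.121). Neil1 read -3.20, -3.32, -3.59, -3.44 and -3.78 in WT_WASHOUT and -2.48, -2.74 and -3.08 in APP-PS1_WASHOUT. It was 0.70 higher (SE 0.16, limma adjusted p = 0.00204), a difference that no longer passed with array row as a block. Ung, which removes uracil from DNA, read 4.09, 3.89, 3.90, 3.97 and 3.71 in WT_WASHOUT and 3.17, 3.30 and 3.24 in APP-PS1_WASHOUT. It was lower by 0.67 on the log2 scale (-0.67, SE 0.11, limma adjusted p = 0.000132), and its groups stood apart. Ogg1, Mutyh and Neil2 differed by 0.0028, -0.16 and 0.03, none past the test. The 8 proliferation markers are given here because Blm and Neil3 are known from dividing cells. Their mean level was -3.99 to -3.31 in WT_WASHOUT and -3.64 to -3.38 in APP-PS1_WASHOUT, so that the ranges overlapped. In the test 2 of the 8 were higher, where 19.8% of all features were. The part of these markers in the result was not tested.

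Among the sensors and the end-joining genes 1 of each passed. Atm read -0.43, -0.27, -0.44, -0.32 and -0.45 in WT_WASHOUT and -1.01, -0.93 and -1.03 in APP-PS1_WASHOUT. The difference was -0.61 (SE 0.09, limma adjusted p = 5.51e-05), against an SD of 0.08 and 0.05 within the groups. Its partners Rad50, Mre11a and Nbn differed by 0.04, -0.13 and -0.09 and Atr by -0.14, none past the test. Lig4, the ligase of end joining, read 0.47, 0.48, 0.63, 0.71 and 0.69 in WT_WASHOUT and 0.03, 0.14 and 0.23 in APP-PS1_WASHOUT, a difference of -0.46 (SE 0.10, limma adjusted p = 0.00137). The other 4 end-joining genes, Prkdc, Xrcc5, Xrcc6 and Xrcc4, differed by -0.22 to -0.02 without passing. A second Atm probe differed by 0.11 (SE 0.09) and a second Lig4 probe by -0.22 (SE 0.11), neither past the test.

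In the later steps of base excision, DNA polymerase beta was the gene that passed. Polb read 3.72, 3.77, 3.60, 3.86 and 3.74 in WT_WASHOUT and 3.45, 3.45 and 3.39 in APP-PS1_WASHOUT. The difference was -0.31 (SE 0.08, limma adjusted p = 0.00782), small in size but clear of the spread within groups. Fitted on these 8 arrays alone, its adjusted p was 0.0516. Apex1, Lig1, Lig3 and Parp2 had an unadjusted p below 0.05 and differed by 0.23, 0.27, 0.18 and -0.19, without passing. The nucleotide excision genes Xpa, Xpc, Ercc1 and Ercc2 differed by 0.24, 0.14, 0.29 and -0.20, and the mismatch gene Msh6 by -0.13, none past the test. In tissue RNA, fewer cells of a type and less RNA per cell cannot be told apart. The plaque microglia markers were again higher in 6 of 6, with mean levels of -0.34 to 0.51 in APP-PS1_WASHOUT against -3.07 to -2.22 in WT_WASHOUT, and 6 of 8 general microglia markers were higher as well. Their part in the repair gene results was not tested.

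**Figure D3:**
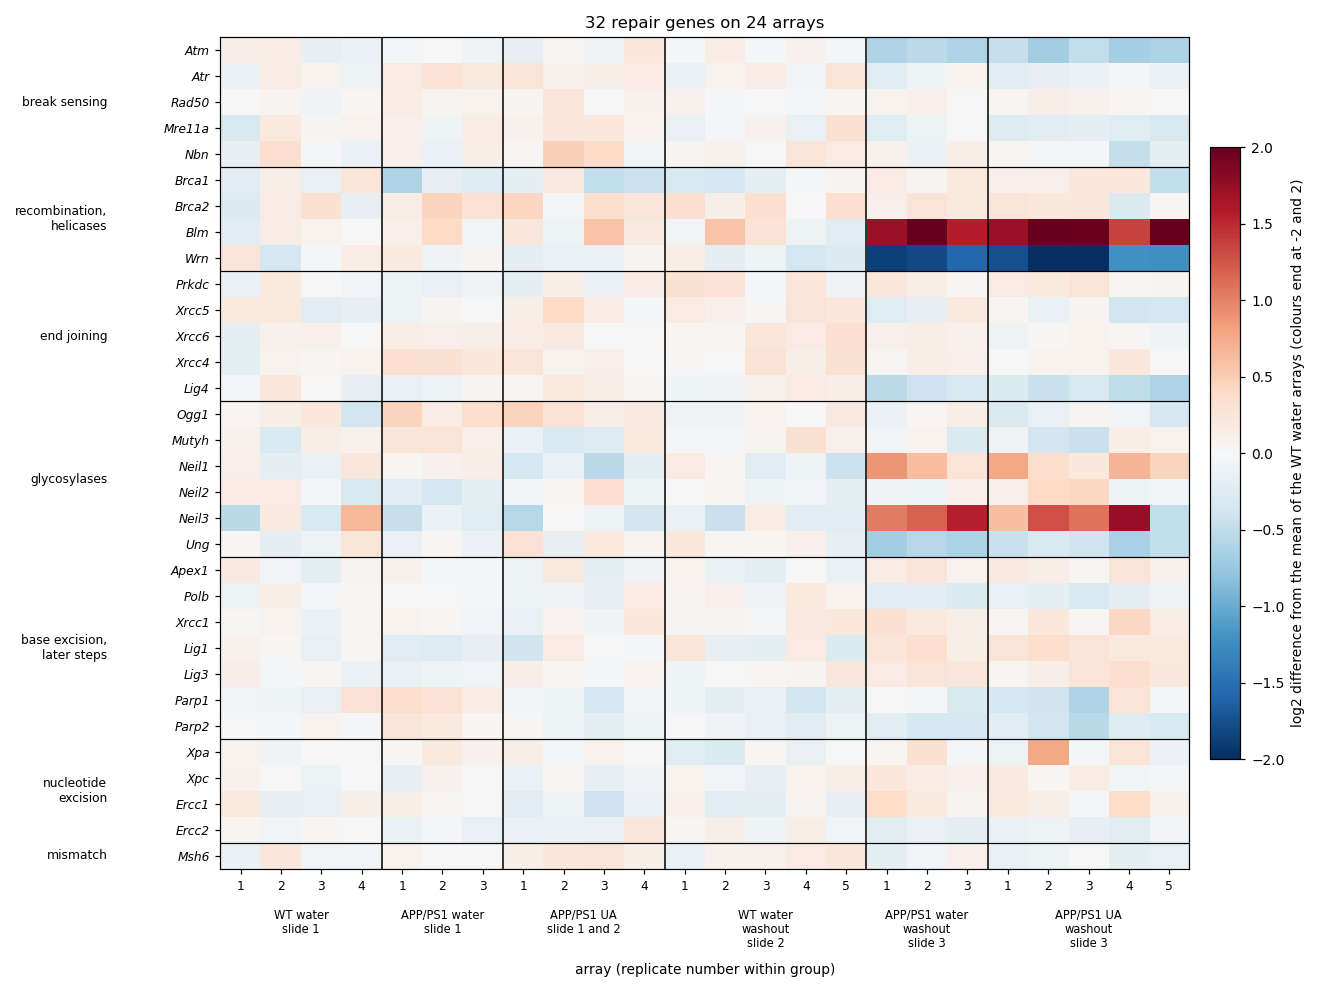
Log2 difference of each of the 32 repair genes (rows, by pathway) from its mean over the WT_CTR arrays, on each of the 24 arrays (columns, by group and slide). The colours of Blm, Wrn and Atm change at the boundary of slide 3, which holds both transgenic washout groups.

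Urolithin A-treated mice after washout were measured on the same slide as their water-treated controls, and in these 8 genes their values lay near those of the controls. In APP-PS1_UA-WASHOUT, Blm read 0.47, 1.05, 0.73, 0.10 and 1.20, and Wrn 1.94, 1.44, 1.46, 2.49 and 2.47. Atm read -0.88, -1.11, -0.91, -1.08 and -1.04, Ung 3.42, 3.56, 3.47, 3.22 and 3.38, and Lig4 0.27, 0.10, 0.23, 0.04 and -0.07. In each of these 5 genes the ranges of the treated and water arrays overlapped, and the treated arrays of Blm and Wrn reached both above and below the range of the 3 water arrays. Neil1 read -2.58, -3.00, -3.15, -2.68 and -2.92, Polb 3.51, 3.48, 3.35, 3.48 and 3.59, and Neil3 -5.19, -4.51, -4.71, -4.06 and -6.28. The lowest Neil3 array was one of 2 in this group on which the probe was not well above background. None of the 32 genes passed the test of urolithin A against water after washout, where 0.0652% of all features did, and 0 had an unadjusted p below 0.05. The smallest adjusted p was 0.766, the differences ran from -0.42 to 0.17 with a median of -0.04 (-0.02 over all features), and 30 of the 32 intervals lay inside -0.5 to 0.5. Groups did not overlap for 1 gene, Xrcc6 below (3.12%, against 5.57% of all features).

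The smallest p-values in that comparison belonged to Ung, Ogg1 and Xrcc6. Ung was 0.17 higher (SE 0.11, adjusted p = 0.766). Ogg1 read -0.83, -0.68 and -0.58 in APP-PS1_WASHOUT and -1.01, -0.87, -0.66, -0.78 and -1.06 in APP-PS1_UA-WASHOUT, a difference of -0.18 (SE 0.13). Xrcc6 read 1.76, 1.79 and 1.75 in APP-PS1_WASHOUT and 1.57, 1.70, 1.74, 1.69 and 1.58 in APP-PS1_UA-WASHOUT, a difference of -0.11 (SE 0.08). The 3 water arrays and replicate 1 of the treated group filled row 1 of slide 3 and the other treated arrays row 2. With slide and row as blocks, replicate 1 alone carried the comparison, so the number of genes that passed in that fit is not given.

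A further comparison was chosen after seeing the data because it shares no array with the washout genotype comparison but also sets slide 3 against mainly slide 2. It compared APP-PS1_UA-WASHOUT with APP-PS1_UA, so that genotype and treatment were the same on both sides. Of the 32 genes 15 passed (46.9%, against 34.8% of all features), 5 higher (22% of all features) and 10 lower (12.8%), and groups did not overlap for 13 (40.6%, against 29.6%). Median scaling turned the split of all calls from 7755 higher and 4528 lower to 5553 and 12041. All 8 genes of the washout genotype comparison lay in the same direction here, and 7 of the 8 passed, Polb (-0.14, SE 0.08) being the exception. These 7 were 7 of the 15 that passed here. Over all features the pattern was similar: of the 9702 that passed in the genotype comparison, 95.1% lay in the same direction here and 72.2% passed in it, and those were 57% of the features that passed here. Blm was higher by 1.75 (SE 0.20) and Wrn differed by -1.63 (SE 0.19), and in APP-PS1_UA Blm had read -1.02, -1.35, -0.69 and -1.08 and Wrn 3.51, 3.56, 3.56 and 3.75. The other Blm probe passed in the opposite direction here (-0.57, limma adjusted p = 4.3e-05), and the 4 other Wrn probes differed by -0.15 to 0.09 without passing. With all kept probes averaged, Blm differed by 0.59 and Wrn by -0.36. Atm differed by -0.60 (SE 0.09), Ung by -0.55 (SE 0.10), Lig4 by -0.53 (SE 0.09), Neil1 by 0.80 (SE 0.14) and Neil3 by 1.10 (SE 0.31). Neil3 passed in 19 of 24 alternatives here, with a difference as low as 0.27. In the genotype comparison the differences in the same order were 1.70, -1.60, -0.61, -0.67, -0.46, 0.70 and 1.43, so that all 7 had the same sign. The other genes that passed were the sensors Mre11a (-0.39), Nbn (-0.35) and Atr (-0.29), the base excision genes Ogg1 (-0.42), Parp2 (-0.26) and Lig1 (0.32), Ercc1 (0.36) and Msh6 (-0.31). A second Lig1 probe passed in the opposite direction (-0.51, limma adjusted p = 0.02). The other Ercc1 probe differed by 0.10 without passing, and the other Parp2 probe passed in the same direction (-0.30). Lig1, Nbn, Ercc1 and Atr did not pass when certain single arrays were left out. Parp2 read -1.22, -1.36 and -1.35 in APP-PS1_WASHOUT and -1.24, -1.40, -1.56, -1.27 and -1.32 in APP-PS1_UA-WASHOUT, and Atr 0.25, 0.41 and 0.57 and 0.28, 0.34, 0.39, 0.46 and 0.37. Without the 4 arrays of row 2 of slide 3 a single washout array was left, so the number of genes that passed in that fit is not given.

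Over the whole series, 5 of the 32 genes had no overlap between the 8 arrays of slide 3 and the other 16, Blm above and Atm, Wrn, Lig4 and Ung below, where 12.1% of all features had none. On slide 3 Blm ranged from 0.10 to 1.20 and elsewhere from -1.48 to -0.68. Wrn ranged from 1.44 to 2.49 on slide 3 and from 3.34 to 3.95 elsewhere. Atm ranged from -1.11 to -0.88 and from -0.57 to -0.20, Ung from 3.17 to 3.56 and from 3.70 to 4.16, and Lig4 from -0.07 to 0.27 and from 0.38 to 0.76. The WT_CTR and APP-PS1_CTR arrays of slide 1 thus stood with slide 2 in these genes: Blm read -1.48, -1.11, -1.18 and -1.24 in WT_CTR and -1.15, -0.85 and -1.30 in APP-PS1_CTR, and Wrn 3.95, 3.34, 3.66 and 3.84 and 3.90, 3.63 and 3.75. Atm read -0.28, -0.27, -0.57 and -0.53 in WT_CTR and -0.44, -0.40 and -0.49 in APP-PS1_CTR. No non-transgenic array and no array from the end of treatment lay on slide 3, so slide, stage and genotype cannot be told apart here.

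The genotype difference was then compared between stages. The difference of differences passed for 5 of the 32 genes (15.6%, against 14.3% of all features), Blm (1.55, SE 0.32) and Neil3 (1.69, SE 0.50) higher (11.6% of all features were) and Wrn (-1.66, SE 0.30), Ung (-0.60, SE 0.16) and Atm (-0.57, SE 0.14) lower (2.65%). Median scaling turned the split of all calls from 4096 higher and 933 lower to 3028 and 4016. Their limma adjusted p-values were 0.00253, 0.0253, 0.000848, 0.0169 and 0.00669. The median over the 32 genes was -0.14, against 0.09 over all features. With array row as a block 2 of the 5 passed, Blm and Wrn. With all kept probes of a gene averaged, Blm stood at 0.53, while Wrn (-0.15, adjusted p = 0.712) and Atm (-0.21) did not pass. Neil3 passed in 22 of 29 alternatives, with a difference as low as 0.31, and did not pass without WT_CTR replicate 4, APP-PS1_CTR replicate 1 or APP-PS1_WASHOUT replicate 3. Ung did not pass with the deposited score, with array row as a block or without APP-PS1_CTR replicate 2. The difference of the urolithin A effect between stages passed for 0 of the 32 genes, where 0.00851% of all features passed. The smallest adjusted p was 0.569, and 17 of the 32 intervals lay inside -0.5 to 0.5.

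The arrays carried more than 1 kept probe for 18 of the 32 genes. In the washout genotype comparison the probes of some of these genes shared a direction and those of others did not. Of the 4 genes among them whose used probe passed (Blm, Wrn, Atm and Lig4), 0 had another probe that passed in the same direction in a fit over all probes. The other Blm probe, given above, had an SE of 0.10. The 4 other Wrn probes differed by -0.00449 to 0.49 without passing, and 1 of them had an SE of 0.07. The other Atm probe differed by 0.11 (SE 0.09) and the other Lig4 probe by -0.22 (SE 0.11). With all kept probes of a gene averaged, Wrn differed by -0.14 (adjusted p = 0.509). Blm, Atm and Lig4 passed with smaller differences, 0.68, -0.25 and -0.34. Ung, Neil1, Neil3 and Polb each had 1 kept probe, so no second reading of them exists here.

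**Figure D4:**
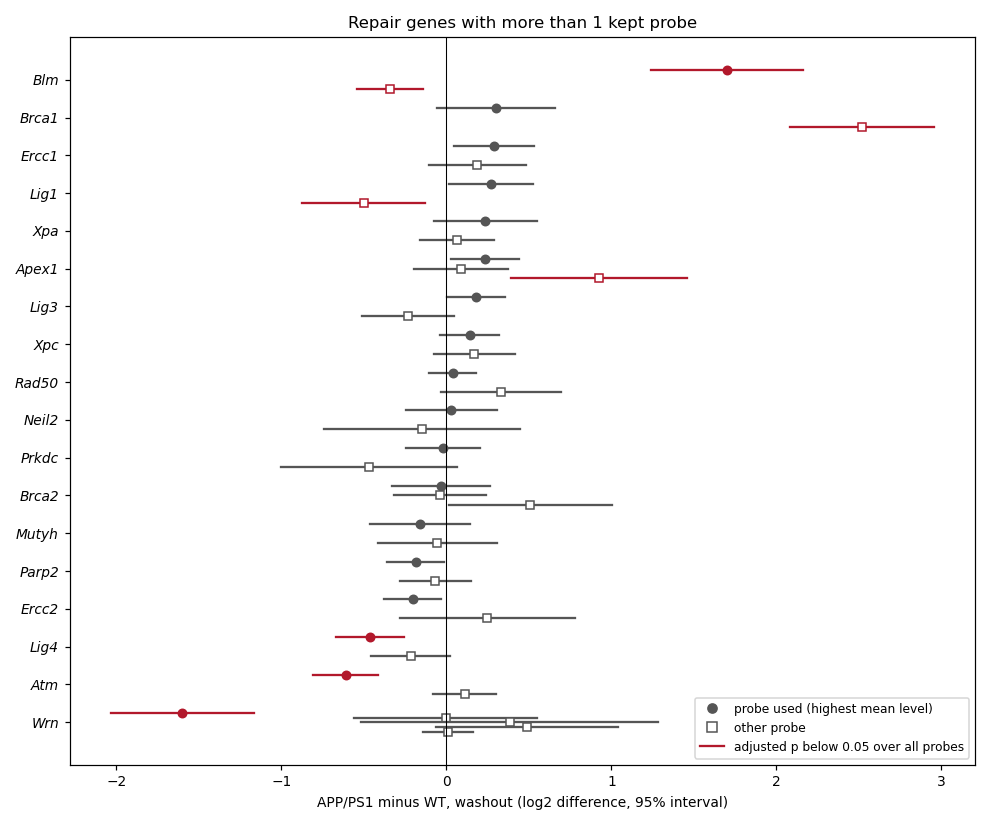
Log2 difference between APP-PS1_WASHOUT and WT_WASHOUT (x axis, point and 95% interval) for each kept probe of the 18 repair genes with more than 1. Filled circles are the probes used, open squares the other probes, and red marks an adjusted p below 0.05: the Blm and Wrn probes used stand apart from the other probes of the same gene.

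In 3 other genes a second probe passed where the probe used did not, and these were noticed after their values were seen. The second Brca1 probe read -4.99, -5.24, -5.48, -5.47 and -5.81 in WT_WASHOUT and -2.68, -2.79 and -3.17 in APP-PS1_WASHOUT, 5.73-fold higher (2.52, SE 0.21, limma adjusted p = 3.71e-08). In APP-PS1_UA-WASHOUT it read -2.25, -2.36, -2.53, -2.47 and -2.82, and on the 16 arrays of slides 1 and 2 it lay between -5.81 and -4.84. Those low levels overlap those of the Neil3 probe, which was near the detection limit. The second Brca1 probe was not tested under another background correction, so the size of its fold is uncertain. The Brca1 probe used read -3.72, -3.75, -3.59, -3.44 and -3.35 in WT_WASHOUT and -3.24, -3.35 and -3.21 in APP-PS1_WASHOUT, so that the second probe separated the slides and the probe used did not. Another Apex1 probe differed by 0.92 (SE 0.26) and a second Lig1 probe by -0.50 (SE 0.18), against 0.23 and 0.27 for the probes used. That Apex1 probe was dim as well, at -5.08 to -4.07 in WT_WASHOUT. In all, 8 of the 18 genes had probes with differences of opposite sign. The probe sequences and the transcripts they cover were not analysed here.

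A wider list of 86 measured repair genes and a list of 20 targets of p53, the transcription factor activated by DNA damage, were read in the same way. In the comparisons of genotype and urolithin A at the end of treatment, of urolithin A after washout and of stage in wild type, 0 of the 86 and 0 of the 20 passed. In the washout genotype comparison 15 of the 86 passed (17.4%, against 27.5% of all features), 8 higher and 7 lower, with a median difference of -0.00641 against 0.07. Recombination genes made up 5 of the 8 higher ones, out of 18 measured, with a median of 0.27, and 0 were lower. The 5 genes were 27.8% of the 18, against 19.8% of all features that were higher and 27.5% that passed in either direction. Rpa1, the large subunit of the single-strand binding protein, was 1.46-fold higher (0.54, SE 0.10) and Xrcc3, which acts in recombination, 1.44-fold (0.52, SE 0.11). Polm, an end-joining polymerase, was higher by 0.51 (SE 0.12). Ercc6, which starts repair in transcribed genes, differed by -0.56 (SE 0.12). Among the p53 targets 3 of 20 passed (15%), 1 higher and 2 lower, with a median of -0.13. Ccng1, a cyclin gene induced by p53, differed by -0.54 (SE 0.12), Btg2 by -1.17 (SE 0.29) and Sesn2 by 0.56 (SE 0.14). The limma adjusted p-values of Rpa1, Xrcc3, Polm, Ercc6 and Ccng1 lay between 0.000257 and 0.00408. Those of Btg2 and Sesn2 were 0.00516 and 0.00461. This comparison set slide 3 against slide 2. Between APP-PS1_UA-WASHOUT and APP-PS1_UA, where 34.8% of all features passed, Rpa1 (0.34), Ercc6 (-0.45), Ccng1 (-0.41) and Sesn2 (0.57) passed in the same direction. Xrcc3, Polm and Btg2 did not pass there. In genotype by stage Rpa1, Ercc6, Ccng1, Btg2 and Sesn2 passed, against 14.3% of all features.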

How the data were processed

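The deposited scanner files hold linear spot intensity in 1 colour (Cy3), which per the file headers Feature Extraction 12.0.3.1 had background-subtracted and detrended within each array. The deposited value table holds a score per probe: each column equals the array's log signal standardized to mean 0 within 0.005, and its column medians ran from -0.17 to -0.06. Groups came from the sample titles.

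Spots flagged as outliers were left out and the other spots of a probe were averaged. Log2 signals were taken relative to each array's 75th percentile. No probe used for the 32 genes lost all its spots on an array. A probe was kept when well above background on at least 3 arrays with at least 2 values per group (43988 of 56605 before the second condition). RefSeq accessions gave symbols to 18566 of 35259 features, 1 probe per gene by highest mean signal, and 16693 probes stayed unnamed. A limma 3.58.1 model (R 4.3.3) of 6 group means used all 24 arrays, with Benjamini-Hochberg adjustment over all features. The model fit was tested on simulated arrays without a slide or row effect, and the steps before it were not tested in this way. Genes with per-array values were the 8 that passed after washout and the 3 with the smallest p per comparison. Members and lists were chosen with earlier results of these data known. Alternatives covered background (normexp on the median signals, since mean signals were not used here), scaling, filters, probes, slide, row, replicate number and each left-out array. Same-numbered samples correlated between -0.24 and 0.24 in their deviations, so the numbers were not taken to pair samples. The number of arrays limits the precision. A gene of the wider list that the naming rule picked is not reported here.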

Additional observations from a re-analysis of the deposited data

Results flagged for a closer look

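In 4 of the 128 sets of a gene and a group of 4 or 5 arrays, 1 array stood far from the others, where chance gives about 1 in 20. Brca1 read -3.89 in APP-PS1_UA-WASHOUT replicate 5 against -3.31 to -3.18 in the others (gap over range 0.807). Mutyh read -1.71 in WT_CTR replicate 2 against -1.32 to -1.28 (0.892). Parp1 read 0.15 in APP-PS1_UA replicate 3 against 0.41 to 0.45 (0.863). Ercc2 read 1.75 in APP-PS1_UA replicate 4 against 1.39 to 1.40 (0.971).

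The genotype difference differed between the 2 stages in 5 genes by the interaction term: Blm by 1.55, Neil3 by 1.69, Wrn by -1.66, Ung by -0.598 and Atm by -0.575. The washout arm of each of these compares slide 3 with slide 2, so that slide and group cannot be told apart.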

How the results depend on the processing

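In the washout genotype comparison the number of repair genes that passed was 16 with median scaling, 14 with the deposited score and 13 with array weights, against 8. Over all features median scaling gave 4976 higher and 7874 lower. Leaving out each array gave 8 to 10 repair genes. Blm, Lig4, Ung and Atm passed in all 22 alternatives run there, but the mean of all kept probes lowered Blm to 0.68 and moved Atm to -0.25. Neil1 was lost with the deposited score and with array row as a block, Polb when only the groups compared were fitted, Wrn with the mean of all kept probes, and Neil3 with normexp and quantile normalization. For genotype by stage the number was 13 with median scaling, 2 with array row as a block and 11 with array weights, against 5. It was 4 to 9 with an array left out, the highest without WT_WASHOUT replicate 1. Over all features median scaling gave 3028 higher and 4016 lower there, and array row as a block 741 and 43. For stage in urolithin A-treated APP/PS1 the setting without row 2 of slide 3, chosen after seeing the data, left a single washout array. Its number of repair genes is therefore not given. Median scaling gave 21 repair genes, against 15 (3 higher and 18 lower, against 5 and 10), and over all features 5553 higher and 12041 lower. The deposited score gave 18 repair genes (3 and 15), the groups compared alone 11, and leaving out an array 13 to 16. There Lig1 turned to -0.0948 (adjusted p = 0.557) and Lig3 to -0.2165 (adjusted p = 0.0318) with the mean of all kept probes. The other 5 comparisons kept 0 repair genes under every alternative run, although some fits of urolithin A against water rested on a single treated array. With the replicate block the numbers were 9, 6 and 15 for these 3 comparisons and 0 for the others. Over all features, the count after washout ran from 5965 to 12850 against 9702, that of genotype by stage from 784 to 7536 against 5029, and that of stage in treated mice from 5053 to 20927 against 12283. At the end of treatment genotype gave 8 to 140 against 60. Urolithin A after washout gave 23, 2862 with no filter on dim probes, 0 when only the groups compared were fitted, and 14 to 86 with an array left out, the highest without APP-PS1_WASHOUT replicate 2. Urolithin A at the end of treatment gave 0 to 11 against 0, stage in wild type 0 to 87 against 6, and urolithin A by stage 0 to 117 against 3. Quantile normalization split the washout calls into 4475 higher and 5263 lower, and the deposited score into 4666 and 6658. Slide as a fixed block could not be fitted for the 3 comparisons with calls. The cause of these changes was not tested.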
